A study of Mus musculus with 8 samples.

Results

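Macrophages of adipose tissue were followed by 10 marker genes through 8 RNA sequencing libraries of mouse white fat. The genes were taken by name and make up 10 of the 37046 features counted. They fall into 3 classes. The pan-macrophage markers are Cd68, Adgre1, Csf1r and Mpeg1, the markers of tissue-resident macrophages are Mrc1, Cd163 and Lyve1, and the markers of lipid-associated macrophages are Trem2, Gpnmb and Itgax. All 10 had estimated counts and passed the filter on low counts that left 15184 genes for testing.

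The mice were female, wild-type and of the C57BL/6J strain. The 4 control libraries come from mice given phosphate-buffered saline, and the 4 endostatin libraries from mice given endostatin, a fragment of a collagen, at 50 mg/kg. Injection was into the tail vein during the day, tissue was taken 2 h later, and food was removed from all mice in between. The labels call the tissue epididymal although the mice are female, and place libraries 1 and 2 of each group in batch 1 and libraries 3 and 4 in batch 2. The mice's age is not given in the sources. The series text speaks of 4 mice without saying whether that is per group, and the labels tie no library to an animal, so p-values measure only how far these samples spread, part of which may be technical.

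Macrophages depend on the growth factor receptor CSF1R for survival and carry a large lysosomal compartment, in which CD68 lies. In lean fat many are perivascular resident cells that carry the mannose receptor MRC1, the haemoglobin scavenger receptor CD163 and the hyaluronan receptor LYVE1. When lipid accumulates, macrophages around dying adipocytes take on a lipid-handling state that depends on the lipid receptor TREM2 and is marked by the lysosome-associated glycoprotein GPNMB and the integrin chain CD11c, which Itgax encodes. In bulk tissue, fewer cells of a type and less RNA per cell cannot be told apart.

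Total estimated counts ran from 15826783 to 19221886 for controls and from 17197721 to 23786594 after endostatin. Some libraries stood apart in markers of neighbouring tissue. The summed level of 8 oviduct and uterus genes was 750.8 TPM (a level per transcript length that sums to the same total over all transcripts of any library) in control 3 and 544.8 in endostatin 4, against 5.14 to 40.4 in the other 6 libraries. The genes behind these high sums differed in part. Ltf and Wfdc2 were at 87.9 and 270 TPM in control 3 and at 298 and 174 in endostatin 4. Ovgp1, Msx1 and Pgr were at 12.7, 162 and 97.2 TPM in control 3 and at 0.719, 11.6 and 5.08 in endostatin 4. A list of 6 skeletal muscle genes summed to 191 TPM in control 1 and 388 in control 4, against 33.2 to 105 elsewhere. The adipocyte markers were abundant in every library, with Adipoq at 2416 TPM in control 3, its lowest level, and 4995 in endostatin 3, its highest.

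The markers covered a wide range of levels. By mean TPM over the 8 libraries the order was Csf1r (142), Cd163 (69.5), Mrc1 (62.9), Lyve1 (53.1), Cd68 (48.9), Adgre1 (35.7), Trem2 (12.5), Mpeg1 (9.45), Gpnmb (8.32) and Itgax (2.86). Csf1r was above Cd163 in 8 of 8 libraries, Cd68 above Adgre1 in 8 and Adgre1 above Trem2 in 8. Neighbours elsewhere in the order changed places in at least 1 library. Cd163 was above Mrc1 in 7 of 8, Lyve1 above Cd68 in 6, Trem2 above Mpeg1 in 6 and Mpeg1 above Gpnmb in 5. The resident markers thus stood at 38.4 TPM or more in each library, and no lipid-associated marker passed 21.4 TPM in any. Part of the Lyve1 level comes from a transcript of 802 bases with a retained intron. That transcript held from 32.8% of the gene's TPM (control 1) to 47.8% (endostatin 2). The coding transcript of Lyve1 alone, at 22.35 to 48.4 TPM, was below Cd68 in every library.

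The start of a macrophage gene often carries purine-rich sites for PU.1, the lineage factor that Spi1 encodes, and such promoters often lack a TATA box. RefSeq (GRCm38.p6) gave the 250 bases before the start of 7 of the 10 genes. The letters GAGGAA, the core of many PU.1 sites, were searched on both strands, and the reverse strand reads TTCCTC. They occurred in 3 of these 7 windows and in 23.3% of 32851 RefSeq windows of the same length. The 3 windows are printed because they hold the searched letters, which stand in capitals, and because they show 1 marker of each class. Cd68 lies on the reverse strand at chr11:69666171-69666420, Mrc1 on the forward strand at chr2:14229164-14229413, and Trem2 on the forward strand at chr17:48346151-48346400.
Cd68: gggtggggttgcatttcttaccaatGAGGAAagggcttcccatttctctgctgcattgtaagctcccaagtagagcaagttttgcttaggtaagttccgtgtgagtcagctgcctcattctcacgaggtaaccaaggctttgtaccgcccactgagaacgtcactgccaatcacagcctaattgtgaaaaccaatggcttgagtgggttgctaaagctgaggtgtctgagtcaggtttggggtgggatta
Mrc1: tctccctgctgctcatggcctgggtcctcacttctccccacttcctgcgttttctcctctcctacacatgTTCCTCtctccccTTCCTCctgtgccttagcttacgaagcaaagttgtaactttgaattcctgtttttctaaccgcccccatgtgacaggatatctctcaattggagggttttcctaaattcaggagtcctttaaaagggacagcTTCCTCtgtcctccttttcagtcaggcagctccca
Trem2: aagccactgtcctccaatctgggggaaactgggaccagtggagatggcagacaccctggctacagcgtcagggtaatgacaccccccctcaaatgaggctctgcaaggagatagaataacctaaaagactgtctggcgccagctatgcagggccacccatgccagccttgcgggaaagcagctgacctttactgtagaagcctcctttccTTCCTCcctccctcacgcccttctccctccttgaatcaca
The Cd68 match begins 225 bases before the start, on the gene's own strand. Mrc1 has 3 matches on the opposite strand, beginning 180, 167 and 35 bases before the start, and Trem2 has 1 on the opposite strand at 40 bases. The longer form GAGGAAGT was in 0 of the 7 windows and in 2.44% of all windows. The letters CATGTG, the core of the M-box bound by the MITF and TFE family, were in 1 of the 7 windows, that of Mrc1, and in 12.3% of all. A match describes letters in a window and shows no binding.

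Endostatin and control libraries were compared over both batches to see whether any marker differed 2 h after injection. No marker passed the adjusted threshold of 0.05 in edgeR's quasi-likelihood test with a batch term, and of all 15184 genes tested 0 did (0%). At an unadjusted p under 0.05, 349 genes were higher and 136 lower after endostatin. The share of all genes that was higher by that rule was 2.3%, and 1 of the 10 markers, Cd68, was among them. A positive log2 fold change was found for 9 of the 10 markers and for 46.6% of all genes. The median log2 fold change of the 10 was 0.32, and that of all tested genes was -0.01. In no marker did the 4 endostatin libraries all lie above the 4 control libraries in CPM (counts scaled to library size by TMM), an arrangement seen in 0.942% of all genes.

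**Figure D1:**
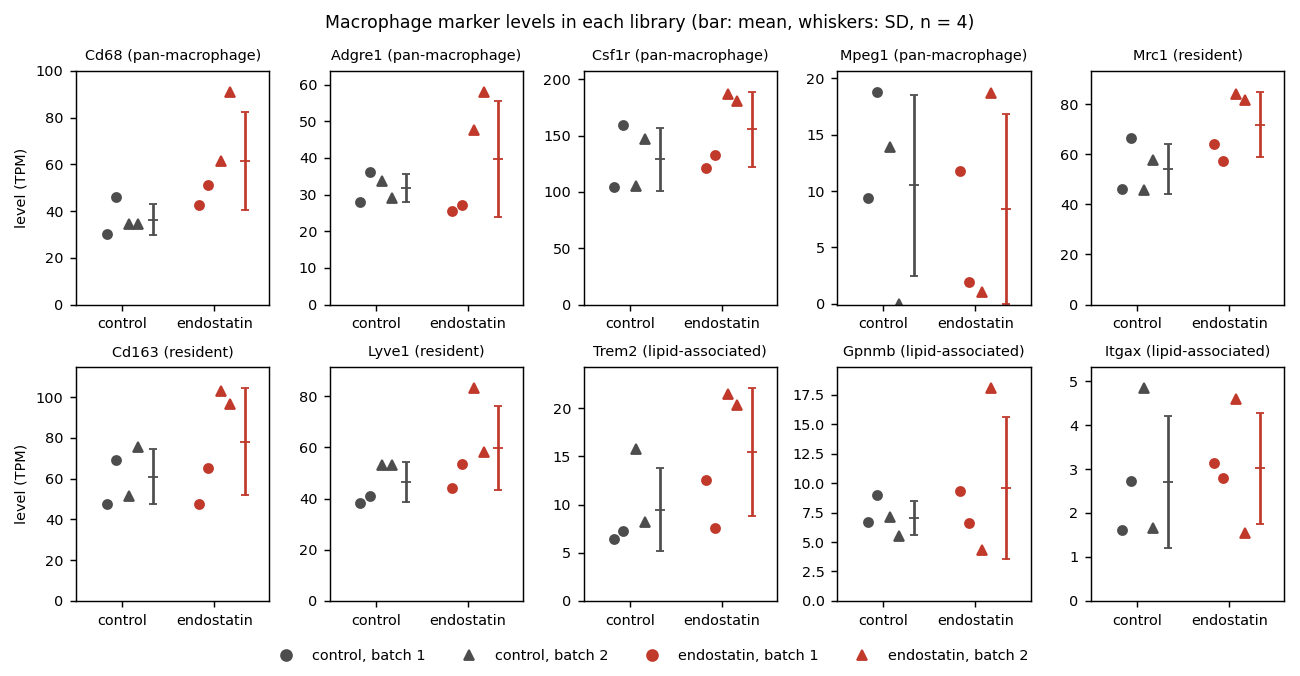
Level in TPM (vertical axis, linear, a separate scale for each panel) of each of the 10 macrophage markers in the 8 libraries, control in grey and endostatin in red, batch 1 as circles and batch 2 as triangles. Horizontal bars are group means and whiskers are SD (n = 4). The batch 2 endostatin triangles stand above the batch 2 control triangles for 7 markers, and Mpeg1 scatters between 0 and 18.8 TPM.

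Cd68, a lysosomal membrane glycoprotein used as a general macrophage marker, had the largest difference among the pan-macrophage markers. Its level in controls 1 to 4 was 30.3, 45.9, 34.6 and 34.7 TPM, and in endostatin 1 to 4 it was 42.4, 51.0, 61.3 and 91.0 TPM. Of the 4 endostatin libraries, 3 lay above all controls, and endostatin 1 lay below control 2. Mean levels were 36.4 ± 6.70 and 61.4 ± 21.1 TPM (SD, n = 4 each). This gave a log2 fold change of 0.71 ± 0.24 (SE; 95% interval 0.16 to 1.26), with unadjusted p = 0.0176 and adjusted p = 1 in edgeR's test. Without control 3 and endostatin 4, the libraries with the high oviduct and uterus sums, it was 0.42.

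Adgre1 encodes an adhesion G protein-coupled receptor of mature mouse macrophages. Its control levels were 28.1, 36.2, 33.8 and 29.1 TPM and its endostatin levels 25.7, 27.2, 47.6 and 58.0 TPM. The endostatin libraries split by batch: in TPM, endostatin 1 and 2 were below every control, and endostatin 3 and 4 were above every control. In CPM, endostatin 1 and 2, at 39.2 and 38.3, lay above control 1 at 36.0. Part of the TPM comes from a short transcript of 342 bases with few counts. It held 26.1% of the gene's TPM in control 1 from 10.5 of 605 estimated counts. In endostatin 1 it held 15.5% from 7.27 of 926. Over both batches the log2 fold change was 0.30 ± 0.24 (95% interval -0.26 to 0.85; adjusted p = 1, edgeR), and 0.04 without control 3 and endostatin 4.

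Csf1r, the receptor for the growth factors CSF1 and IL34, was measured at 104, 159, 106 and 147 TPM in the controls and at 121, 133, 187 and 181 TPM after endostatin. The control and endostatin libraries of batch 1 overlapped, and endostatin 3 and 4 were the highest of the 8. Its log2 fold change was 0.33 ± 0.21 (95% interval -0.17 to 0.83; adjusted p = 1, edgeR) and 0.11 without control 3 and endostatin 4. Much of this TPM comes from a short transcript of 416 bases, which held 37.0% of the gene's TPM in control 1 from 82.8 of 2576 estimated counts. The fold changes rest on counts, in which this transcript weighs little.

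Mpeg1 encodes perforin-2, a pore-forming protein of phagocytes. It was listed at 9.35, 18.8, 13.9 and 0 TPM in the controls and at 11.8, 1.96, 1.08 and 18.7 TPM after endostatin, the widest scatter of the 10 markers. A transcript identifier of 4335 bases that matched no gene in GENCODE M21 shared these reads: the estimated counts of the Mpeg1 transcript (4334 bases) and of that identifier summed to a whole number in 8 of 8 libraries, within 0.002 counts. No other transcript in the files did so with Mpeg1. The Mpeg1 transcript received 86.9%, 66.5%, 62.5% and 0% of the shared sum in the controls and 63.8%, 11.6%, 4.65% and 55.7% in the endostatin libraries. The sums themselves were 487, 1251, 864 and 613 estimated counts in the controls and 1067, 937, 1051 and 1452 after endostatin. Control 4, listed at 0 for Mpeg1, thus had 613 counts on the pair.

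With the counts of the pair added together, the levels were 10.8, 28.3, 22.2 and 13.04 TPM in the controls and 18.4, 16.9, 23.3 and 33.6 TPM after endostatin. These sums overlap between the groups. Mpeg1 had a log2 fold change of -0.25 ± 1.30 as listed and 0.25 ± 0.33 for the pair (adjusted p = 1 in edgeR for each). The interval as listed, -3.25 to 2.75, includes 0 and changes of either sign.

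**Figure D2:**
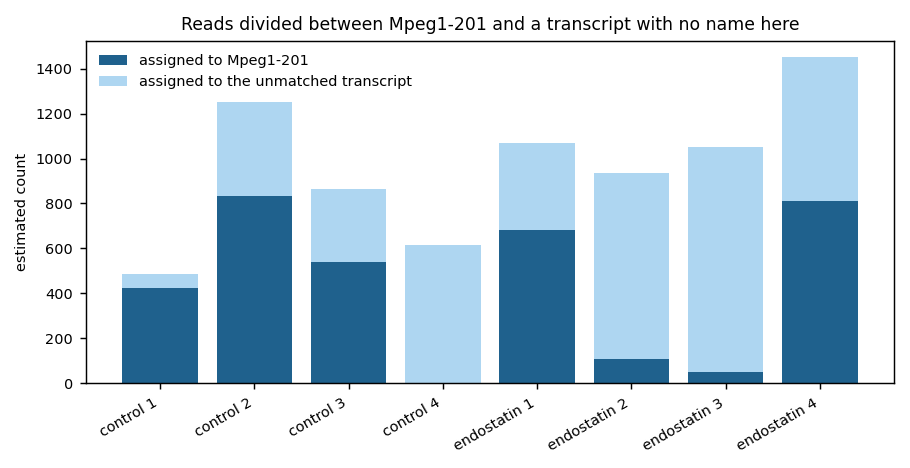
Estimated counts (vertical axis, linear from 0) assigned to the Mpeg1 transcript (dark) and to an unmatched transcript of nearly the same length (light), stacked for each of the 8 libraries. The stacked height runs from 487 to 1452 counts, and the dark share runs from 0% in control 4 to 86.9% in control 1.

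Among the resident markers, Mrc1 stood at 46.2, 66.4, 45.6 and 57.6 TPM in the controls and at 64.3, 57.5, 84.1 and 81.6 TPM after endostatin. Endostatin 3 and 4 were above every control, and endostatin 1 and 2 lay within the control range. Mrc1 had a log2 fold change of 0.35 ± 0.20 (95% interval -0.11 to 0.81; adjusted p = 1, edgeR), or 0.16 without control 3 and endostatin 4.

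Cd163, which takes up haemoglobin bound to haptoglobin, was at 47.6, 69.3, 51.3 and 75.5 TPM in the controls and at 47.6, 65.2, 103 and 96.4 TPM in the endostatin libraries. Its pattern followed that of Mrc1, with the highest levels in endostatin 3 and 4. The log2 fold change of 0.26 ± 0.25 (95% interval -0.32 to 0.84; adjusted p = 1, edgeR) fell to 0.03 without control 3 and endostatin 4.

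Lyve1, also a marker of lymphatic endothelium, had control levels of 38.4, 41.1, 53.1 and 53.3 TPM and endostatin levels of 44.3, 53.6, 83.1 and 58.2 TPM. In TPM endostatin 2, 3 and 4 lay above every control, with endostatin 3 the highest, and endostatin 1 lay among the controls. In CPM only endostatin 3 lay above every control, and the other 7 libraries overlapped. Its log2 fold change was 0.24 ± 0.14 (95% interval -0.09 to 0.57; adjusted p = 1, edgeR), with 0.25 without control 3 and endostatin 4 and 0.08 without endostatin 3 alone. A list of 6 lymphatic markers without Lyve1 summed to 56.6, 80.9, 206 and 47.4 TPM in the controls and to 107, 35.1, 46.5 and 267 TPM after endostatin. Endostatin 3, with the highest Lyve1, had a lymphatic sum of 46.5 TPM and was listed at 0 for Prox1, the factor that defines lymphatic endothelium. Genes of the list differed. Ccl21a made up 141 TPM of the sum in control 3, 201 in endostatin 4 and 4.62 in endostatin 3. Pdpn had its highest level in endostatin 3, at 35.9 TPM.

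The lipid-associated markers were low and less even. Trem2 was at 6.48, 7.26, 15.8 and 8.22 TPM in the controls and at 12.5, 7.54, 21.4 and 20.3 TPM after endostatin. Control 3 lay above endostatin 1 and 2, and endostatin 3 and 4 were the highest. Trem2 had a log2 fold change of 0.50 ± 0.25 (95% interval -0.07 to 1.06; unadjusted p = 0.0787, adjusted p = 1, edgeR), with 0.64 without control 3 and endostatin 4 and 0.32 without control 4 alone. These values rest on 88 to 277 counts per library.

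Gpnmb, a transmembrane glycoprotein of lipid-laden macrophages, stood at 6.73, 8.98, 7.10 and 5.49 TPM in the controls and at 9.36, 6.60, 4.28 and 18.0 TPM after endostatin. Endostatin 3 was the lowest of the 8 libraries and endostatin 4 the highest. The log2 fold change of 0.43 ± 0.37 (adjusted p = 1, edgeR) turned to -0.12 without endostatin 4. Melanocytes, which also express Gpnmb, had 4 markers that summed to 0.991 to 2.99 TPM, and Tyrp1 was listed at 0 in 7 of the 8 libraries.

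Itgax, shared by lipid-associated macrophages and dendritic cells, was at 1.62, 2.73, 4.84 and 1.66 TPM in the controls and at 3.13, 2.79, 4.59 and 1.54 TPM after endostatin. In TPM control 3 was the highest library and endostatin 4 the lowest, and in CPM endostatin 3 was the highest and control 4 the lowest. The groups of 4 overlapped on both scales. The log2 fold change was 0.30 ± 0.42 (adjusted p = 1, edgeR) on 46 to 182 counts per library, and it turned to -0.10 without endostatin 3. The 7 dendritic cell markers summed to 25.2 to 37.0 TPM over the 8 libraries. Zbtb46 made up 13.33 to 18.55 TPM of these sums and Cd209a 6.17 to 13.33 TPM. Flt3 was at 0.605 to 1.35 TPM.

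Single libraries moved these values. Leaving out each library in turn, Cd68 ranged from 0.50 (without endostatin 4) to 0.92 (without control 2), and Adgre1 from 0.12 to 0.53 with the same libraries left out. Csf1r ranged from 0.14 to 0.54, Mrc1 from 0.16 to 0.51 and Cd163 from 0.02 to 0.44, each lowest without control 3 and highest without control 2. Lyve1 ranged from 0.08 (without endostatin 3) to 0.33 (without endostatin 4), and Trem2 from 0.32 (without control 4) to 0.66 (without endostatin 2).

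Within the batches the markers gave different values. In batch 1, 6 of the 10 had a positive log2 fold change, against 50.6% of all genes, and the median of the 10 was 0.03. That count fell to 3 without endostatin 1 and was 9 without control 2. In batch 2, 10 of 10 were positive, against 46.8% of all genes, with a median of 0.68. That count was 8 without control 4 or without endostatin 4, 9 without endostatin 3 and 10 without control 3. Without control 4, where Mpeg1 is listed at 0, the batch 2 value of Mpeg1 went from 0.64 to -0.36 and that of Itgax from 0.41 to -0.17. Without endostatin 4, Gpnmb went from 0.83 to -0.37 and Mpeg1 to -2.50. Without endostatin 3, Itgax went to -0.56 and Lyve1 from 0.34 to 0.00, and Trem2 went from 0.69 to 0.36 without control 4. The median of all tested genes was 0.00 in batch 1 and -0.02 in batch 2.

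The endostatin libraries lay wholly above the controls in batch 2 for 6 markers, Cd68, Adgre1, Csf1r, Mrc1, Cd163 and Trem2, in CPM. This arrangement held for 14.7% of all genes in batch 2. In batch 1 it held for 0 of the 10 markers and for 16.1% of all genes. The reading depends on the scale: in TPM, Lyve1 joined the 6 in batch 2, and in batch 1 Lyve1, Trem2 and Itgax were wholly higher and Adgre1 wholly lower after endostatin. With 2 libraries on each side, such arrangements were common among all genes, as these shares show.

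**Figure D3:**
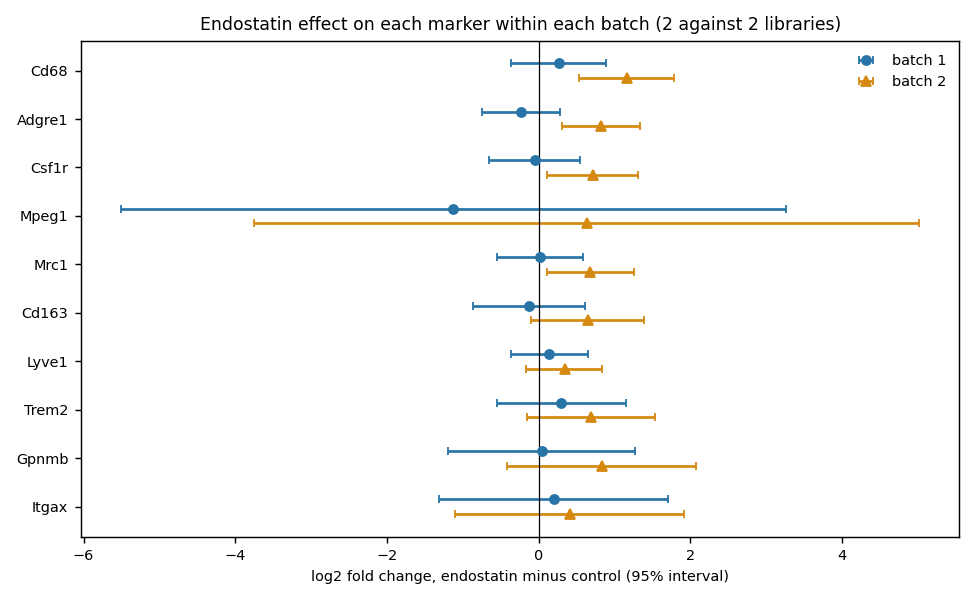
Log2 fold change of endostatin against control (horizontal axis) for each of the 10 markers (vertical axis) within batch 1 (blue circles) and batch 2 (orange triangles), 2 against 2 libraries. Whiskers are 95% intervals of the quasi-likelihood fit. The batch 2 values of all 10 markers are above 0, with Cd68 at 1.16, and the batch 1 values scatter around 0.

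For Cd68 the log2 fold change was 0.27 ± 0.26 in batch 1 and 1.16 ± 0.27 in batch 2 (95% interval in batch 2, 0.53 to 1.79). The batch 2 value had unadjusted p = 0.00351 and adjusted p = 0.578 in edgeR's test. For Adgre1 the values were -0.23 ± 0.22 and 0.82 ± 0.22, the latter with unadjusted p = 0.00713 and adjusted p = 0.603. Neither passed the adjusted threshold within a batch.

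In batches 1 and 2 the log2 fold changes were -0.05 and 0.71 for Csf1r, 0.02 and 0.68 for Mrc1, -0.13 and 0.65 for Cd163, and 0.14 and 0.34 for Lyve1. The lipid-associated markers had 0.30 and 0.69 for Trem2, 0.04 and 0.83 for Gpnmb, and 0.20 and 0.41 for Itgax. Mpeg1 had -1.13 and 0.64 as listed, and -0.23 and 0.73 with the reads of the pair. By class the batch 2 medians were 0.76 for the pan-macrophage, 0.65 for the resident and 0.69 for the lipid-associated markers, close to each other. Their batch 1 medians were -0.14, 0.02 and 0.20.

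The difference between the batches was tested with the batch by treatment interaction. No marker passed (adjusted p = 0.997 for each of the 10, edgeR), and 0 of all genes did (0%). At an unadjusted p under 0.05, Adgre1 (difference 1.05 ± 0.31 log2 units, unadjusted p = 0.0112 in edgeR) and Cd68 (0.89 ± 0.37, unadjusted p = 0.0486) had a more positive effect in batch 2. That is 2 of 10 markers, against 2.19% of all genes in the same direction.

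Batch 2 holds both libraries with a high oviduct and uterus sum, 1 in each group, though the genes behind the sums differed in part. With control 3 and endostatin 4 left out, batch 2 has 1 library on each side, and the spread is taken from the other libraries. The batch 2 control is then control 4 alone, the library with the highest skeletal muscle sum, 388 TPM. Mpeg1 is listed at 0 in control 4 and is left out here. Each batch 2 value thus compares endostatin 3 alone with control 4 alone. Cd68 was at 0.75, Adgre1 0.60, Csf1r 0.42, Mrc1 0.44, Cd163 0.36, Lyve1 0.47, Trem2 1.29 and Itgax 1.94, and Gpnmb was at -0.38. Without control 1 and control 4, the libraries with the highest muscle sums, the batch 2 control is control 3 alone. Cd68 was then at 1.27, Adgre1 0.85, Csf1r 1.00, Mrc1 1.02, Cd163 1.13, Lyve1 0.50, Trem2 0.37 and Gpnmb 0.84. In that setting Itgax was at -0.16 and Mpeg1 at -0.36. In TPM, endostatin 3, with an oviduct and uterus sum of 8.51, had the highest level of the 8 libraries for Csf1r, Mrc1, Cd163, Lyve1 and Trem2. Endostatin 4, with a sum of 544.8, had the highest for Cd68, Adgre1 and Gpnmb, and in CPM also for Csf1r.

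Levels also differed between the batches themselves in 2 markers at an unadjusted p under 0.05. Trem2 was higher in batch 2 by 0.79 ± 0.25 log2 units (adjusted p = 0.489, edgeR) and Lyve1 by 0.39 ± 0.14 (adjusted p = 0.499). By that rule 5.42% of all genes were higher in batch 2. None of the 10 passed the adjusted threshold in edgeR's batch term, which called 6 genes, or 0.0395%.

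The balance of lipid-associated to resident markers was taken as the ratio of their summed TPM in each library. Mrc1, Cd163 and Lyve1 summed to 132, 177, 150.0 and 186 TPM in the controls and to 156, 176, 270.3 and 236 TPM after endostatin. Trem2, Gpnmb and Itgax summed to 14.8, 19.0, 27.8 and 15.4 TPM and to 25.0, 16.9, 30.3 and 39.9 TPM. Both sums reached their highest levels in endostatin 3 and 4, and the lipid-associated sum of control 3 was above that of endostatin 1.

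The log2 ratio was -3.16, -3.22, -2.43 and -3.60 in the controls and -2.64, -3.38, -3.16 and -2.57 in the endostatin libraries. Its means were -3.10 ± 0.49 and -2.94 ± 0.40 (SD, n = 4 each). The difference of 0.17, or 0.18 in batch 1 and 0.16 in batch 2, was smaller than the spread between libraries of a group. It was 0.39 without control 3 and 0.00 without control 4. In linear terms the lipid-associated sum was 8.25% to 18.5% of the resident sum.

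**Figure D4:**
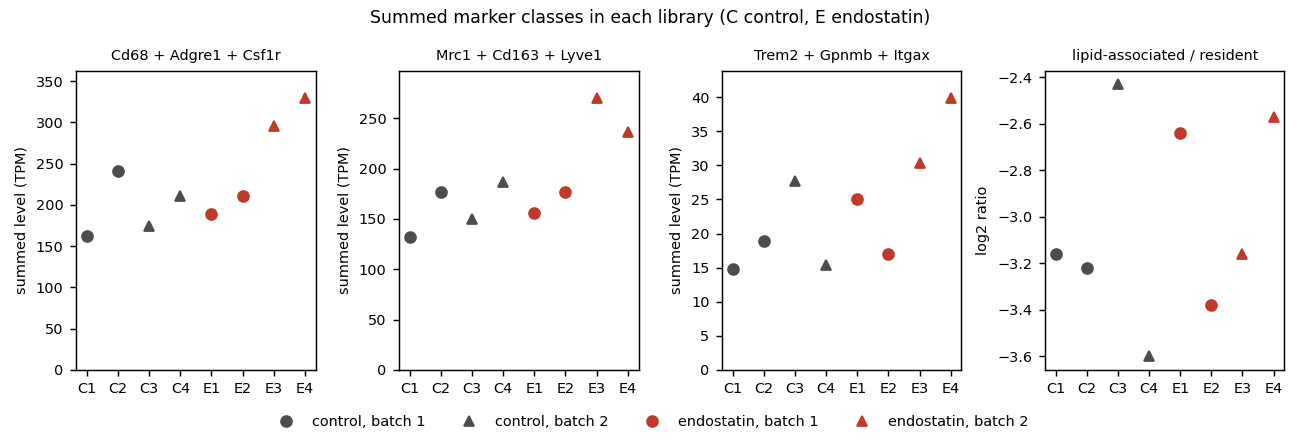
Summed TPM of the pan-macrophage markers without Mpeg1, of the resident markers and of the lipid-associated markers (first 3 panels, linear axes from 0), and the log2 ratio of lipid-associated to resident sums (last panel, axis not from 0), in controls C1 to C4 and endostatin libraries E1 to E4. Circles are batch 1 and triangles batch 2. The sums of E3 and E4 are the highest in each class, and the ratios of both groups interleave between -3.60 and -2.43.

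Each marker except Mpeg1 was also set against the sum of Cd68, Adgre1 and Csf1r, a measure of general macrophage RNA in the same library. Relative to that sum, Cd68 was higher after endostatin by 0.35 log2 units, 0.31 in batch 1 and 0.40 in batch 2, with group SDs of 0.12 and 0.18. Adgre1 differed by -0.12, Csf1r by -0.09, Mrc1 by 0.05 and Cd163 by -0.04, each within the larger of its group SDs. Lyve1 differed by -0.02 over both batches, from 0.28 in batch 1 and -0.32 in batch 2. Trem2 differed by 0.33, Gpnmb by -0.10 and Itgax by -0.16, each less than its SD within a group. Itgax too had opposite signs, 0.48 in batch 1 and -0.79 in batch 2. These are descriptions of scores over the markers and carry no test. Cd68, Adgre1 and Csf1r are themselves part of the sum. Csf1r made up from 54.8% of it (endostatin 4) to 69.7% (control 4), and part of the Csf1r TPM comes from its transcript of 416 bases.

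The markers tracked each other to unequal degrees over the 8 libraries, in log2 CPM. Pearson's r was 0.95 between Csf1r and Mrc1, 0.91 between Csf1r and Cd163, 0.89 between Csf1r and Cd68 and 0.88 between Adgre1 and Csf1r. Gpnmb had r = 0.33 and Itgax r = -0.05 with Csf1r. Lyve1 had r = 0.48 with Csf1r and 0.67 with Cd163. The points share libraries, batches and scaling, and the values are descriptions over 8 libraries.

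The genes most like a marker were looked up among 13325 named genes whose mean reached 1 CPM. For Csf1r they were Clec10a (r = 0.99), a lectin of resident macrophages, Mcpt4 (0.99), a mast cell chymase, and Slc9a9 (0.98). Cd68 was nearest to Rab11fip5 (0.99), Tbx6 (0.97) and Unc93b1 (0.97), and Adgre1 to Serpinb6a (0.98), Efnb1 (0.97) and Scara5 (0.97). Among the resident markers, Mrc1 had P2ry6 (0.99), Serpinb8 (0.96) and Mctp1 (0.96), and Cd163 had Adap2 (0.99), Ctsz (0.98) and Gapvd1 (0.98). Lyve1 had Fam217a (0.99), Pcbp3 (0.98) and Kifc3 (0.97).

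For the lipid-associated markers the nearest genes were Slc9a3r1 (0.98), Stat3 (0.98) and Bmp1 (0.97) for Trem2, and Mmp11 (0.95), Zfp521 (0.95) and Gucy1a1 (0.94) for Gpnmb. Itgax had Itgal (0.94), an integrin chain of leukocytes, Prim2 (0.94) and Lat (0.93), an adaptor of T cell signalling. Mpeg1 as listed had Samd9l (0.98), Lin9 (0.98) and Zfp960 (0.97). With 8 points, high r values arise for many genes and show nothing of shared function.

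Transcripts with a retained intron took unequal shares of the markers' estimated counts. In Trem2, such a transcript held 44.0%, 30.2%, 37.6% and 32.7% of the counts in the controls and 28.5%, 24.7%, 33.3% and 15.0% after endostatin. The group means of 36.1% ± 6.06 and 25.4% ± 7.76 (SD, n = 4 each) differed with an exact two-sided permutation p of 0.0857, and 0.6 after adjustment over the 7 markers with such transcripts. The permutation did not take batch into account, and the smallest p it allows is 0.0286. The share was 9.47% to 16.4% in Lyve1 and 11.2% to 12.9% in Cd163, with no difference past the threshold (adjusted permutation p = 0.6 for each). In Csf1r, Mrc1, Gpnmb and Itgax the share was 4.97% or less.

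Other macrophage genes were taken from lists by role, chosen with earlier results of these data known. Genes of a list were measured in the same 8 libraries, so their counts are not counts of independent results. Of 17 other general macrophage genes tested, 14 had a positive log2 fold change over both batches (46.6% of all genes did) and 0 passed the adjusted threshold (edgeR; 5 were higher at an unadjusted p under 0.05 and 0 lower, against 2.3% of all genes higher). Their median was 0.06 in batch 1 and 0.74 in batch 2. Itgam, the integrin chain CD11b, was at 0.74 ± 0.25 (adjusted p = 1, edgeR) and the lysosomal protease Ctss at 0.62 ± 0.21 (adjusted p = 1). Cd14, a lipopolysaccharide co-receptor, was at -0.13 ± 0.23, and the fractalkine receptor Cx3cr1 at -0.31 ± 0.76.

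Itgam levels were 10.6, 17.1, 12.5 and 9.27 TPM in the controls and 14.4, 17.6, 26.5 and 27.5 TPM after endostatin. As with Cd68 and Csf1r, the highest levels were in endostatin 3 and 4. Lyz2, a lysozyme gene, had 310, 464, 348 and 287 TPM in the controls and 393, 372, 682 and 759 TPM after endostatin, with the same split. C1qa, C1qb and C1qc, the chains of complement C1q, had log2 fold changes of 0.03, 0.13 and 0.00 in batch 1 and of 0.84, 0.87 and 0.81 in batch 2.

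Of 12 other resident macrophage genes tested, 12 were positive over both batches (46.6% of all genes), 0 passed the adjusted threshold, and 1 was higher at an unadjusted p under 0.05 (2.3% of all genes). Stab1, a scavenger receptor, was at 0.33 ± 0.14 (adjusted p = 1), and the folate receptor Folr2 at 0.63 ± 0.28 (adjusted p = 1). In batch 1, 5 of the 12 were positive (50.6% of all genes) with a median of -0.04, and in batch 2, 12 of 12 (46.8%) with a median of 0.75. Folr2 had 57.3, 88.1, 50.3 and 67.4 TPM in the controls and 75.5, 83.6, 138 and 134 TPM after endostatin.

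The other lipid-associated genes gave smaller values. Of 12 genes 11 were tested, since Spp1 was below the count filter, and 8 were positive (46.6% of all genes), 0 past the adjusted threshold and 2 higher at an unadjusted p under 0.05 (2.3%). Their medians were 0.00 in batch 1 and 0.21 in batch 2. The elastase Mmp12 was at 0.52 ± 0.20 (adjusted p = 1) and the apolipoprotein Apoe at 0.42 ± 0.18 (adjusted p = 1). The lysosomal protease Ctsd was at -0.34 ± 0.19, and Fabp5, a fatty acid binding protein, at -0.23 ± 0.25. Fat cells and other cells of the tissue also express many of these genes, among them Apoe and Ctsd.

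**Figure D5:**
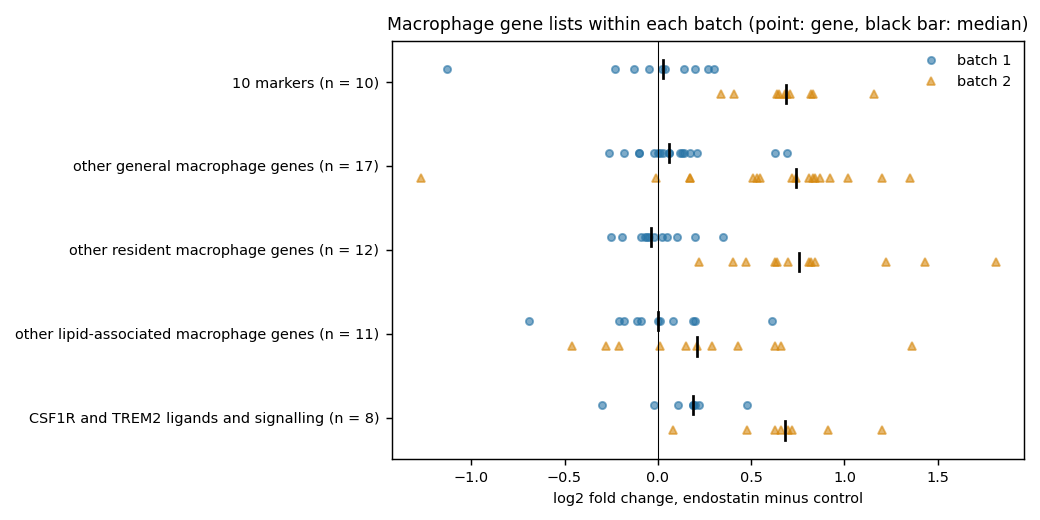
Log2 fold change of endostatin against control (horizontal axis) within batch 1 (blue circles) and batch 2 (orange triangles), each point a gene, for the 10 markers and 4 lists of related genes (vertical axis). Black bars are medians. Batch 2 medians are 0.68 to 0.75 for the markers, the general and resident genes and the signalling genes, and 0.21 for the lipid-associated genes, and batch 1 medians are -0.04 to 0.19.

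Ligands and signalling partners of CSF1R and TREM2 came next. Of 8 genes tested, 7 were positive (46.6% of all genes), 0 passed the adjusted threshold and 4 were higher at an unadjusted p under 0.05 (2.3%). The kinase Syk was at 0.55 ± 0.20 (adjusted p = 1). The 2 ligands of CSF1R differed: Csf1 was at 0.35 ± 0.13 (adjusted p = 1) and Il34 at -0.11 ± 0.26. Csf1 levels were 27.6, 30.6, 36.2 and 33.9 TPM in the controls and 37.7, 37.4, 53.6 and 35.4 TPM after endostatin, so control 3 lay above endostatin 4 and the groups overlapped. Tyrobp also stands among the general and Apoe among the lipid-associated genes. Tyrobp, the adaptor of TREM2, had a log2 fold change of -0.02 in batch 1 and 0.72 in batch 2.

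The MITF and TFE factors, which drive lysosomal genes and Gpnmb, and 4 lysosomal genes showed 4 positive of 8 over both batches (46.6% of all genes). None passed the adjusted threshold and 0 had an unadjusted p under 0.05 in edgeR's test. The positive count was 2 of 8 in batch 1 (50.6% of all genes), with a median log2 fold change of -0.09. It was 8 of 8 in batch 2 (46.8% of all genes), with a median of 0.20. The protease Ctsk was at 0.28 ± 0.21 and Tfeb at 0.06 ± 0.12, and Lamp2 and Tfec were both at -0.05. Of 12 activation and cytokine genes, 4 were tested: 3 were positive (46.6% of all genes), 0 passed the adjusted threshold and 1 was higher at an unadjusted p under 0.05 (2.3%). Tnf, Il1b, Il6, Cxcl2, Ccl3, Ccl4, Il10 and Il1rn were below the count filter. The monocyte chemokine Ccl2 was at 1.23 ± 0.41 (adjusted p = 1, edgeR), with 2.02, 2.39, 3.48 and 2.09 TPM in the controls and 8.71, 5.71, 6.79 and 2.35 TPM after endostatin. Endostatin 4 lay within the control range. Arg1 was at 3.37 ± 1.57, with 82.9 TPM in endostatin 4 against 0.508 to 6.65 in the other 7 libraries. Its levels ranked the 8 libraries in the same order as those of Alb, a liver transcript, which was at 487 TPM in endostatin 4. Whether liver RNA adds to the Arg1 values was not tested. Nos2 was at -0.22 ± 0.42.

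Markers of other cells that could carry the same genes were summed in each library. The 7 monocyte genes summed to 72.0, 111, 247 and 60.6 TPM in the controls and to 99.3, 74.3, 104 and 333 TPM after endostatin. Plac8 made up 196 TPM of the sum in control 3 and 264 TPM in endostatin 4, and Ccr2, the chemokine receptor of monocytes, ran from 6.16 to 16.6 TPM. The 5 Kupffer cell genes summed to 4.19 to 5.75 TPM in the controls and 6.54 to 10.7 TPM after endostatin. Timd4, which also stands among the other resident macrophage genes, made up 2.90 to 6.64 TPM of these sums. Clec4f, which defines these liver macrophages, was at 1.40 TPM or less and below the count filter. It had 4, 3, 0 and 0 counts in the controls and 8, 28, 0 and 33 after endostatin. Alb, a liver transcript, was at 88.5, 51.0, 10.0 and 18.3 TPM in the controls and at 194, 257, 17.2 and 487 TPM after endostatin. Of 5 mast cell genes 5 were positive over both batches (46.6% of all genes), with medians of 0.04 in batch 1 and 0.88 in batch 2. The part of any of these cells in the values of the 10 markers was not tested.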

How the data were processed

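Ribosomal RNA was removed from white fat RNA and 8 stranded libraries were made with dUTP, per the labels' protocols. The deposited files hold, for 115620 transcripts, estimated counts and TPM made by the authors with Salmon against GRCm39, per the submitters' processing notes; the sources used here give no version, index or options. Where transcripts have sequence in common Salmon splits their reads, which makes near-identical transcripts uncertain. The description of endostatin 4 repeats the read file name of endostatin 3; the labels were kept. The files also give effective lengths.

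Identifiers were matched without version to GENCODE M21 for names only (113710, or 98.35%); the 1910 others stayed features of their own. No coordinates of the files' build are printed; promoter windows come from RefSeq on an older build. Estimated counts and TPM were summed per gene, and counts were rounded to whole numbers. After filterByExpr and TMM, edgeR 4.0.16 (R 4.3.3) fitted batch and treatment by its quasi-likelihood test; a model with their interaction gave within-batch values. Tests are two-sided with Benjamini-Hochberg adjustment over 15184 genes and a threshold of 0.05. A count of 0 allows up to 3 counts, or 0.126 to 0.19 CPM in a library, for counting error only. Likeness used log2 CPM with a prior count of 2. Scripts were tested on simulated data.

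The markers and the gene lists were chosen with earlier results of these data known. All 10 markers are named; of each list, up to 2 genes per direction with the smallest p; for each marker, the 3 genes with the highest r. Lyz2, Folr2, Tyrobp and the C1q genes were given further values after they were seen. Alternatives were other size factors, DESeq2 1.42.0, limma-voom (limma 3.58.1), other filters, length offsets, no batch term, a replicate block, and leaving out libraries.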

Additional observations from a re-analysis of the deposited data

How the results depend on the processing

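The 10 markers were refitted under 20 settings, 200 values in all. Direction was kept in 191 and turned in 9, and the lowest adjusted p was 0.681. The 9 were all in Mpeg1, Gpnmb and Itgax, and the cause was not tested. Leaving out each library in turn, the log2 fold change of Mpeg1 (-0.25) ranged from -1.60 to 0.31, that of Gpnmb (0.43) from -0.12 to 0.64 and that of Itgax (0.30) from -0.10 to 0.62. With the reads of the unmatched transcript, chosen after seeing the data, Mpeg1 was at 0.25. Without control 3 and endostatin 4 Gpnmb was at -0.10, and without control 1 and control 4 Itgax was at -0.07. The count of markers positive in batch 1, also an added check, was 6 and ranged from 3 (without endostatin 1) to 9.

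Over all genes, edgeR called 0 for endostatin and 0 for the interaction, with 485 and 527 genes at an unadjusted p under 0.05. DESeq2 called 4 and 26, with none of the 10 markers among the 4. Whether any marker was among the 26 was not looked up. For batch 2 against batch 1, edgeR called 6, library size alone 2, DESeq2 171, limma-voom 10 and no filter 11. Leaving out each library gave 0 to 18: 0 without control 1, control 2, endostatin 2 or endostatin 3, 3 without endostatin 1 and 18 without endostatin 4. A replicate block called 0 for endostatin (307 at an unadjusted p under 0.05), with Cd68 at 0.71. Deviations of same-numbered libraries from their group means had correlations of 0.211, 0.144, -0.0732 and -0.295. Only 1 of 4 control libraries matched its own number best. These values give no sign of pairing by number. The deviations were taken over both batches and include batch differences, so whether libraries are paired was not settled. No alternative moved the ratio of lipid-associated to resident markers by 1 SD or more. Depth limits Itgax, with 46 to 182 counts per library, and Trem2, with 88 to 277.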
